A study of Mus musculus with 3 samples.

Results

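The 10 genes described here encode the enzymes and the helper protein that make eicosanoids, together with histidine decarboxylase, which makes histamine. They are Ptgs1, Ptgs2, Ptges, Alox5, Alox5ap, Alox15, Lta4h, Ltc4s, Hpgds and Hdc, and all 10 were found by symbol among the 32285 genes that the matrices list. Their counts were followed in 3 single-cell RNA libraries from the left lung of C57BL/6J mice, 1 library for each condition. In 2 of the libraries a CD45.2 lung had been transplanted into a CD45.1 recipient of the same background after 60 minutes of cold storage at 4 °C and 45 minutes at 28 °C, and the graft was taken after 2 h or 3 d of reperfusion. The third library came from the left lung of naive mice with no surgery. Cells of 2 mice were pooled for each library and sorted on CD45.1 to keep the cells of the recipient, although a naive lung holds no recipient cells and the design text speaks of a naive mouse in the singular. With 1 library per condition no difference between conditions has a replicate check, so no p-value is given and every interval covers counting error only.

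Eicosanoids are signalling lipids made from arachidonate that is cut out of membranes. Cyclooxygenases (Ptgs1, Ptgs2) turn it into the precursor from which terminal synthases such as Ptges and Hpgds make prostaglandins, while lipoxygenases (Alox5 with its membrane partner Alox5ap, and Alox15) open the route to leukotrienes and related lipids, which Lta4h and Ltc4s complete. Leukotrienes draw neutrophils into tissue and tighten airways, prostaglandins act on vessels and on leukocytes, and histamine, which mast cells and basophils keep in granules, widens small vessels and makes them leak.

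On GRCm38 (GENCODE vM21) the cyclooxygenase genes lie at chr2:36230426-36252272 on the plus strand (Ptgs1, ENSMUSG00000047250) and chr1:150100031-150108227 on the plus strand (Ptgs2, ENSMUSG00000032487), and the synthases at chr2:30889471-30929863 on the minus strand (Ptges, ENSMUSG00000050737) and chr6:65117293-65144908 on the minus strand (Hpgds, ENSMUSG00000029919). The lipoxygenase genes lie at chr6:116410077-116461178 on the minus strand (Alox5, ENSMUSG00000025701) and chr11:70344152-70352031 on the minus strand (Alox15, ENSMUSG00000018924), and Alox5ap (ENSMUSG00000060063) at chr5:149264767-149288153 on the plus strand. Lta4h (ENSMUSG00000015889) lies at chr10:93453411-93484875 on the plus strand, Ltc4s (ENSMUSG00000020377) at chr11:50236461-50238616 on the minus strand and Hdc (ENSMUSG00000027360) at chr2:126593667-126619299 on the minus strand. Counts are of whole genes and do not tell exons or isoforms apart.

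Promoters from RefSeq (GRCm38.p6) were found for 8 of the 10 genes, and not for Alox5ap and Alox15. The 3 printed here belong to Ptgs2 and Hdc, whose highest levels included both neutrophils and basophils, and to Ptges, which was counted mostly in macrophages. Each runs 5′ to 3′ on the strand of the gene from 150 bases before the start to 30 bases from it, with matches to 4 motifs in capitals: the E-box CANNTG, the cyclic AMP response core TGACG, the C/EBP motif TTNNGNAA and the GC box GGGCGG, each searched on both strands.
Ptgs2, chr1:150099881-150100060, plus strand: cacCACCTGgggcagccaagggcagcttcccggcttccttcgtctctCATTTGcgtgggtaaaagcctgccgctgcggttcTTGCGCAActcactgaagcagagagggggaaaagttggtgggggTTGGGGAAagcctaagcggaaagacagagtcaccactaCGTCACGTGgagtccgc
Hdc, chr2:126618649-126618828, minus strand: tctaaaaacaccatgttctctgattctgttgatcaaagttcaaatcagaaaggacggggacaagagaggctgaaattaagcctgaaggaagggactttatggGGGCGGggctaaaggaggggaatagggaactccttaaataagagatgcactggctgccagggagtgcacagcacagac
Ptges, chr2:30903268-30903447, minus strand: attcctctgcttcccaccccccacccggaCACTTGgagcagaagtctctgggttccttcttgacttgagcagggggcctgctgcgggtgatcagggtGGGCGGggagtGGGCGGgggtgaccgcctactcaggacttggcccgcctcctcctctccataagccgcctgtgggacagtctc
In the Ptgs2 window the C/EBP motif stood 69 and 25 bases before the start, the E-box 147 and 103 bases before it and 17 bases after it, and the response core, on the other strand, at 14 bases after the start, where it overlaps that last E-box. The Hdc window held a GC box 48 bases before the start and no match to the other 3 motifs. The Ptges window held GC boxes 53 and 42 bases before the start and an E-box at 121 bases. Of all 32851 promoters cut the same way, 54.1% held the E-box, 15.6% the response core, 25.9% the C/EBP motif and 31.0% the GC box, against 5, 1, 2 and 3 of the 8 promoters of these genes, so the matches describe letters and not binding. The Hdc and Ptges windows lie inside the gene spans given above, whose longest models start further upstream.

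The filters kept 2422, 10283 and 8324 cells of the naive, 2 h and 3 d libraries. Depth differed widely: the median cell held 7298.5, 878 and 5716.5 gene UMIs (unique molecular identifiers, the counted molecules), so the 2 h library gives the least precise value per cell. Between 0 and 21 cell barcodes were shared between pairs of libraries. Clusters were made without the 10 genes and then named from marker genes. Levels are counts per 1000000 (CPM), that is the UMIs of a gene summed over the cells of 1 cell type in 1 library, divided by all gene UMIs of those cells.

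The cell types that carried these genes were covered unevenly. Neutrophils numbered 388, 4393 and 2409 in the naive, 2 h and 3 d libraries, basophils 20, 68 and 111, and lymphocytes (B, T and NK cells) 1645, 4940 and 3247. Monocytes numbered 143, 612 and 1291. All but 1 of those at 2 h were named nonclassical, and at 3 d 528 were nonclassical and 763 classical. Of the cells named nonclassical at 2 h, 308 came from a cluster led by heat-shock genes that also carried B cell markers. The 143 naive cells were also named nonclassical by the score, but their classical markers summed to 3547 CPM and their nonclassical markers to 2131 CPM, against 517 and 1950 CPM at 2 h and 585 and 4485 CPM in the nonclassical cells at 3 d. They are called naive monocytes here, and their values are not a like-for-like start of the nonclassical ones. Macrophages were 108 naive cells, of which 102 were alveolar macrophages, and 803 cells at 3 d, none of them alveolar. The 5 macrophages at 2 h were too few for a value, and since the naive and 3 d cells were of different kinds, their values stand side by side with no ratio. Neutrophil markers summed to between 57657 and 148179 CPM in neutrophils, with 10 of 10 detected in each library. Basophils carried 6 or 7 of 7 basophil markers in each library (6189 to 7586 CPM, with Prss34 at 0 at 2 h), and of the 7 mast cell markers they showed 2, Cma1, Mcpt4, Tpsb2, Tpsab1 and Mrgprb1 being at 0. In the 2 transplant libraries antibody tags gave a second readout: the CD45R antibody averaged 18.5 and 17.9 counts per B cell against 0.272 and 0.713 per T cell.

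**Figure D1:**
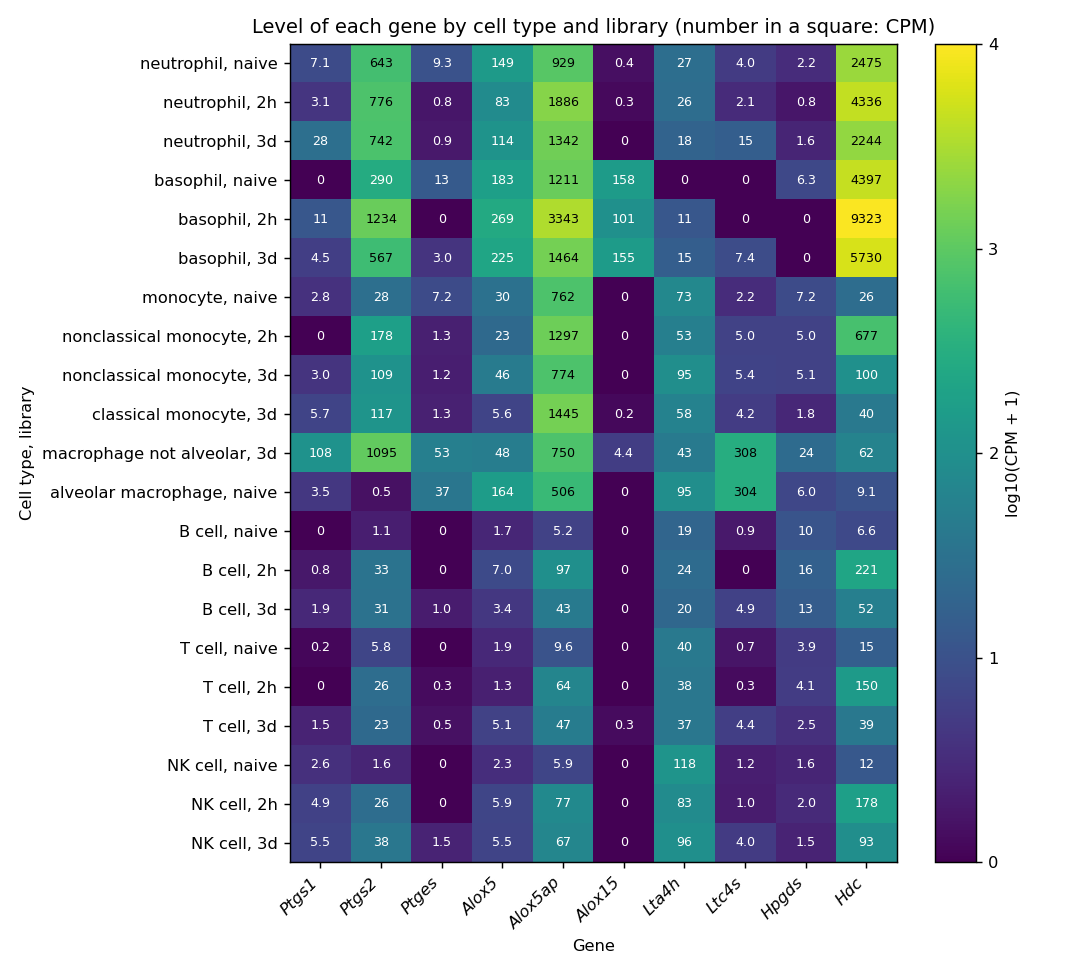
Level of each of the 10 genes (columns) in the named cell types by library (rows); the number in a square is CPM and the colour is log10(CPM + 1), for sums of at least 20 cells. Hdc, Ptgs2 and Alox5ap stand high in neutrophils and basophils, Alox15 in basophils, and Ltc4s and Ptges in macrophages. Ptgs2 stands high in the 3 d macrophages too, and Alox5ap in monocytes.

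Within each library, neutrophils and lymphocytes were divided most sharply by Hdc, Ptgs2, Alox5ap and Alox5. The log2 ratio of neutrophils to lymphocytes was 7.73, 4.66 and 5.48 for Hdc in the naive, 2 h and 3 d libraries, and 7.60, 4.82 and 4.72 for Ptgs2. For Alox5ap it was 6.99, 4.67 and 4.84, and for Alox5 6.23, 4.57 and 4.72. These 4 genes were therefore at least 23.7-fold higher in neutrophils in every library, with intervals of the log2 ratio that stayed above 3.90. Lta4h and Hpgds went the other way, with log2 ratios of -1.15, -0.73 and -0.94 for Lta4h and of -1.10, -3.05 and -2.29 for Hpgds, the naive Hpgds interval reaching from -2.77 to 0.19. Lta4h was thus called only in the naive library. Over all genes the median log2 ratio was -1.31, -1.09 and -1.09 in the same order, so Lta4h lay above that median in each library. A gene was called where it was past 2-fold among genes with at least 20 UMIs over both sides, a count of 0 being set to 3 counts. For Ptges, 21 naive UMIs in neutrophils stood against 0 in lymphocytes, a level at least 42.3-fold higher. In the naive library 7 of 9 such members were called higher in neutrophils and 2 lower, where 13.3% of all 12441 genes were higher and 56.9% lower. At 2 h, 4 of 6 were higher and 1 lower (15.7% and 52.9% of all genes), and at 3 d, 6 of 9 were higher and 1 lower (15.0% and 52.9%).

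Ptgs2, the inducible cyclooxygenase, was abundant in neutrophils before any transplant and stayed there. Its level in neutrophils was 643 CPM (95% interval 610 to 677) in the naive library, 776 (748 to 804) at 2 h and 742 (726 to 758) at 3 d. The 2 h and 3 d values were separated by a log2 ratio of 0.06 (0.00 to 0.12), and the 2 h and naive values by 0.27 (0.18 to 0.36), so that all 3 libraries lay close together. Without the 3 d cluster led by Il1f9 that is described with Ptgs1, the ratio of 2 h to 3 d was 0.37. Thinned to 500 UMIs per cell, 22.9%, 24.8% and 22.5% of neutrophils held a Ptgs2 UMI, against 0.173%, 0.480% and 0.665% of T cells (unthinned, 63.4%, 33.9% and 63.2% of neutrophils, at median depths of 5574.5, 751 and 4419 UMIs, and of 9844, 1131 and 8370 in T cells).

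In basophils the summed level of Ptgs2 differed between the libraries. Its level was 290 CPM (212 to 387) in the naive library, 1234 (1014 to 1487) at 2 h and 567 (511 to 627) at 3 d, and the 3 intervals did not overlap. The 2 h value was 2.18-fold the 3 d value (log2 1.12, 0.80 to 1.43), past the 2-fold line. It was under that line at log2 0.33 when each cell was named from its own marker UMIs, at 0.74 after thinning and at 0.98 with ribosomal and mitochondrial genes left out of the total. After thinning, 1 of 20 naive basophils, 18 of 68 at 2 h and 19 of 111 at 3 d held a Ptgs2 UMI. The intervals of the summed level do not cover differences between cells. Whether the share of basophils with Ptgs2 differed between libraries was not tested. Against neutrophils of the same library, basophil Ptgs2 stood at log2 -1.15 in the naive library, 0.67 at 2 h and -0.39 at 3 d, thus below neutrophils in the naive and 3 d libraries and above them at 2 h.

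Macrophages held the other large pool of Ptgs2. Alveolar macrophages of the naive lung gave 1 Ptgs2 UMI (0.504 CPM), whereas the macrophages at 3 d gave 10237 UMIs and 1095 CPM (1074 to 1117). Monocytes stood between these, naive monocytes at 28.2 CPM, nonclassical monocytes at 178 and 109 CPM at 2 h and 3 d and classical monocytes at 117 CPM at 3 d. Those named nonclassical at 2 h include the heat-shock cluster with B cell markers. In nonclassical monocytes neutrophil RNA, taken at the proportion of its markers, would give 97.4 of the 178 CPM at 2 h and 19.7 of the 109 CPM at 3 d. That takes every marker UMI as neutrophil RNA, and the part of such RNA was not tested. Neutrophil markers in the 3 d macrophages summed to 1.25% of their level in neutrophils, and at that proportion neutrophil RNA would give 9.27 CPM of Ptgs2. The share of naive and 3 d macrophages with a Ptgs2 UMI after thinning was 0 of 108, which allows up to 2.78%, and 28.5% (25.4 to 31.8), against 0.665% of T cells at 3 d.

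Ptgs1, the cyclooxygenase that most cells express at a steady level, was concentrated at 3 d in few of the neutrophils. Neutrophils held 7.12 CPM (16 UMIs) in the naive library, 3.11 (12 UMIs) at 2 h and 27.8 (319 UMIs) at 3 d. The 2 h level was lower than the 3 d level by a log2 ratio of -3.16 (-4.13 to -2.33). That difference came mostly from 1 cluster of 261 neutrophils at 3 d, led by Il1f9, Csf1, Mmp9, Tnf and Ccl3 and also carrying Siglecf: Ptgs1 stood at 217 CPM in it and at 7.25 CPM in the larger cluster of 2130 cells. Without that cluster, a setting chosen after seeing the data, the log2 ratio of 2 h to 3 d was -1.34. Elsewhere Ptgs1 reached 108 CPM in macrophages at 3 d, 78.4, 17.4 and 45.9 CPM in endothelial cells (22, 1 and 28 UMIs) and at most 5.51 CPM in lymphocyte types.

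Ptges, which makes prostaglandin E2 from the cyclooxygenase product, was counted mostly in macrophages. It stood at 36.8 CPM (73 UMIs) in naive alveolar macrophages and at 52.7 CPM (48.2 to 57.6, 493 UMIs) in macrophages at 3 d. A cluster of 166 cells at 3 d with platelet markers held 54.2 CPM from 10 UMIs (26.0 to 99.7). Its median cell held 666 UMIs, macrophage was its next marker list, and the part of macrophage RNA in it was not tested. Neutrophils held 9.35, 0.778 and 0.871 CPM in the naive, 2 h and 3 d libraries, from 21, 3 and 10 UMIs, and the intervals of the naive level and of both transplant levels did not overlap. Hpgds, the haematopoietic synthase of prostaglandin D2, followed another order: B cells held 10.0, 15.6 and 13.5 CPM, alveolar macrophages 6.05 in the naive library, macrophages 23.9 at 3 d, and neutrophils 2.23, 0.778 and 1.57. The 6 other naive macrophages gave 19 of the 31 Hpgds UMIs of naive macrophages.

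Both clusters of macrophages at 3 d expressed Ptgs2, but they differed in the synthase that follows it. The cluster led by Arg1, Saa3 and Ccl24 (637 cells) held Ptgs2 at 1165 CPM and the one led by C1qa, C1qb and Spp1 (166 cells) at 918 CPM, a log2 ratio of 0.34 (0.28 to 0.41). Ptges was 71.0 CPM in the first and 6.44 in the second, 11-fold apart (log2 3.46, 2.77 to 4.25). Hpgds ran opposite, at 3.28 and 76.1 CPM from 22 and 201 UMIs (log2 -4.54, -5.24 to -3.90). Ltc4s went with Ptges, at 408 and 54.5 CPM (log2 2.90, 2.66 to 3.15), and all 41 Alox15 UMIs of these macrophages lay in the Arg1 cluster. Because the clusters were made without these genes, they did not define them, although other genes of the same cells did, so the comparison carries no test. The summed platelet markers, Pf4 among them, stood at 591 and 530 CPM in the Arg1 and C1qa clusters, and their part in the Ptgs1 level was not tested.

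**Figure D2:**
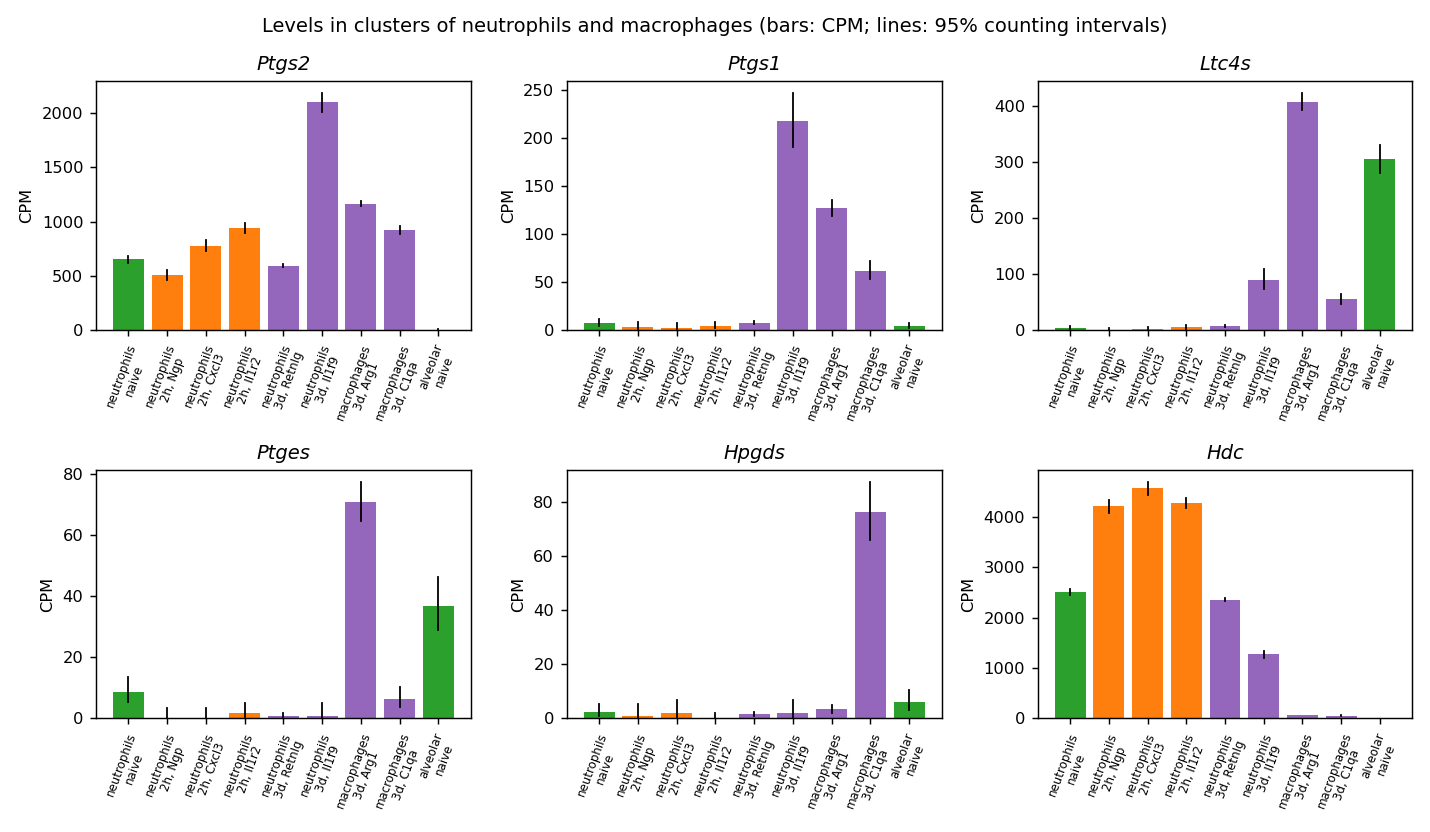
CPM (bars, from 0) with 95% counting intervals (lines) of 6 genes in clusters of neutrophils and macrophages, each cluster in the library that holds it; green is naive, orange 2 h and purple 3 d, and the gene under a library is one that leads the cluster. Ptgs1 and Ptgs2 stand highest in the 3 d neutrophil cluster led by Il1f9, Ptges and Ltc4s in the Arg1 macrophages and Hpgds in the C1qa macrophages.

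Alox5, the lipoxygenase that starts leukotriene synthesis, and Alox5ap, the membrane protein that hands it arachidonate, were found together in neutrophils, basophils and macrophages. In neutrophils they differed in which library was highest. Neutrophil Alox5 was 149 CPM (133 to 165) in the naive library, 83.0 (74.1 to 92.6) at 2 h and 114 (108 to 120) at 3 d, lowest at 2 h. Neutrophil Alox5ap was 929 CPM (889 to 970), 1886 (1843 to 1930) and 1342 (1321 to 1363), highest at 2 h. Against the naive library, Alox5ap at 2 h was 2.03-fold higher (log2 1.02, 0.95 to 1.09) while the log2 ratio of Alox5 was -0.84 (-1.07 to -0.62). Thinned to 500 UMIs, 37.6%, 56.4% and 47.3% of neutrophils held an Alox5ap UMI, against 0.347%, 2.04% and 1.33% of T cells.

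Basophils expressed both genes at or above the level of neutrophils. Basophil Alox5 was 183, 269 and 225 CPM in the naive, 2 h and 3 d libraries, from 29, 24 and 151 UMIs, and the 3 intervals overlapped. Alox5ap was 1211 CPM (1046 to 1395), 3343 (2975 to 3745) and 1464 (1374 to 1558), with the 2 h level 2.28-fold the 3 d level (log2 1.19, interval up to 1.38). Alveolar macrophages of the naive lung held Alox5 at 164 CPM (147 to 183) and Alox5ap at 506 CPM, and macrophages at 3 d held 47.9 and 750.2 CPM. Monocytes came nearer to neutrophils for Alox5ap than for Alox5: naive monocytes held Alox5ap at 762 CPM and Alox5 at 29.9 CPM. Nonclassical monocytes held Alox5ap at 1297 and 774 CPM and Alox5 at 22.7 and 45.6 CPM at 2 h and 3 d. Classical monocytes at 3 d held 1445 and 5.58 CPM. The cells named nonclassical at 2 h include the cluster led by heat-shock genes, which also carried B cell markers.

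Lta4h and Ltc4s, which complete leukotriene B4 and leukotriene C4 from the Alox5 product, were both found beside Alox5 in naive alveolar macrophages, and gave few UMIs in basophils. Lta4h is found in most cells, and here NK cells held 118, 83.1 and 95.7 CPM and naive alveolar macrophages 94.7. Macrophages at 3 d held 43.3 CPM, naive monocytes 72.5, nonclassical monocytes 53.0 and 95 at 2 h and 3 d, T cells 39.8, 37.9 and 37.3, and neutrophils 26.7, 25.9 and 18.0. The 2 h nonclassical value includes the heat-shock cluster with B cell markers. Basophils gave 0, 1 and 10 Lta4h UMIs and 0, 0 and 5 Ltc4s UMIs. Those 10 Lta4h UMIs at 3 d make 14.9 CPM (7.13 to 27.4). The Lta4h intervals of basophils and neutrophils overlapped in each library, so the few UMIs do not set basophils below neutrophils. Ltc4s was highest in macrophages, at 298 CPM (275 to 323) in the naive library, where nearly all were alveolar, and 308 CPM (297 to 320) at 3 d. The cluster with platelet markers held 119 CPM at 3 d, from 22 UMIs, and the part of macrophage RNA was again not tested. Neutrophils held 4.01, 2.07 and 14.6 CPM of Ltc4s from 9, 8 and 168 UMIs. As with Ptgs1, 97 of the 168 UMIs at 3 d lay in the neutrophil cluster led by Il1f9, at 88.9 CPM against 6.19 CPM in the larger cluster, and the log2 ratio of 2 h to 3 d moved from -2.82 (-4.05 to -1.81) to -1.72 without it.

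Alox15, which oxidises arachidonate and related lipids at another carbon, marked basophils. They held 158 CPM (102 to 233, 25 UMIs) in the naive library, 101 (46.2 to 192, 9 UMIs) at 2 h and 155 (126 to 187, 104 UMIs) at 3 d, and these intervals overlapped. Neutrophils gave 1, 1 and 0 Alox15 UMIs. The only other sizeable count was the 41 UMIs of the macrophages at 3 d (4.39 CPM). At 3 d the basophil level was at least 592-fold that of neutrophils, with the neutrophil count set to 3 UMIs.

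Hdc, the enzyme that makes histamine, was found in nearly all neutrophils and basophils, with the higher level in basophils of every library. Basophils held 4397 CPM (4077 to 4736) in the naive library, 9323 (8700 to 9980) at 2 h and 5730 (5550 to 5914) at 3 d. Neutrophils held 2475 CPM (2411 to 2541), 4336 (4270 to 4402) and 2244 (2217 to 2272). In both cell types the 2 h library was the highest, with log2 ratios of 2 h to 3 d of 0.70 (0.59 to 0.81) in basophils and 0.95 (0.92 to 0.98) in neutrophils, neither past 2-fold. After thinning to 500 UMIs, 64.9%, 83.3% and 62.1% of neutrophils and 75.0%, 94.1% and 94.6% of basophils held an Hdc UMI, against 0.693%, 3.48% and 1.14% of T cells (unthinned, 98.7%, 91.2% and 97.0% of neutrophils).

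Basophils and neutrophils differed in what accompanies Hdc. Slc18a2, which loads histamine into granules, stood at 845, 987 and 1188 CPM in basophils and at 0.445, 0.259 and 2.35 CPM in neutrophils. Hdc itself was higher in basophils by a log2 ratio of 0.83, 1.10 and 1.35 in the naive, 2 h and 3 d libraries. Of the members with enough UMIs, basophils were called higher than neutrophils for 1 of 7 in the naive library (Alox15), 2 of 5 at 2 h (Alox5, Hdc) and 2 of 8 at 3 d (Alox15, Hdc), where 22.5%, 23.8% and 24.9% of all genes were higher. They were called lower for 1 each, Ptgs2 in the naive library, Lta4h at 2 h (1 UMI, log2 -1.21, interval across 0) and Ptgs1 at 3 d, where 24.6%, 14.2% and 18.5% of all genes were lower. At 2 h Alox15 had 10 UMIs over both sides and was not counted.

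Neutrophils of the 2 h library formed 3 clusters, and these differed in Ptgs2 and Alox5ap but hardly in Hdc. Hdc stood at 4276 CPM in the cluster led by Il1r2 (2134 cells), 4205 in the one led by Ngp and Retnlg (1196 cells) and 4568 in the one led by Cxcl3 (1059 cells). Ptgs2 was 937, 506 and 775 CPM in the same order, and Alox5ap 1665, 2563 and 1588. The Ngp cluster, which is led by genes of neutrophil granules, was therefore lowest for Ptgs2 (log2 ratio of the Il1r2 to the Ngp cluster 0.89, 0.75 to 1.03) and highest for Alox5ap (-0.62, -0.70 to -0.55). At 3 d the cluster led by Il1f9 held more Ptgs2, 2102 against 591 CPM, and less Hdc, 1272 against 2352 CPM, than the larger cluster. In that cluster all 10 neutrophil markers were detected (39608 CPM). Of 12 macrophage markers 11 were detected and summed to 838 CPM, with Mertk at 0. The same sum was 668 CPM in the larger cluster and 19531 CPM in the Arg1 macrophages. Of 7 eosinophil markers, Siglecf was among the genes that led the cluster, while Epx, Ear6 and Il5ra were at 0. Per cell at 2 h, Hdc was about as frequent with Ptgs2 as without it. After thinning, an Hdc UMI was seen in 83.5% of neutrophils with a Ptgs2 UMI and in 83.2% of the others. The same shares were 70.8% and 63.2% in the naive library and 64.9% and 61.3% at 3 d.

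Hdc UMIs were also counted in monocytes and lymphocytes, along with UMIs of neutrophil markers. At 2 h Hdc stood at 677 CPM in nonclassical monocytes, 221 in B cells, 178 in NK cells and 150 in T cells. Neutrophil markers in these cells summed to 12.6%, 4.11%, 3.43% and 3.09% of their level in neutrophils, and at those proportions neutrophil RNA would give 544, 178, 149 and 134 CPM of Hdc. The reckoning takes every marker UMI as neutrophil RNA, so it is too high where a cell type makes a marker itself. Whether the monocytes did was not tested, and at 2 h they include the heat-shock cluster with B cell markers. At 3 d the observed values were 100, 52.2, 93.2 and 39.2 CPM against 59.5, 22.8, 64.2 and 21.3 CPM. In basophils the same reckoning gave 134 CPM at 2 h where 9323 were observed. The part of neutrophil RNA in the Hdc of monocytes and lymphocytes was not tested further. Ptgs2 in lymphocytes was likewise 27.4 CPM at 2 h, against 26.3 CPM at the neutrophil proportion, and 28.2 against 8.57 CPM at 3 d. Macrophages at 3 d held Ptgs2 at 1095 CPM, and the part of their RNA in the lymphocyte value was not tested.

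**Figure D3:**
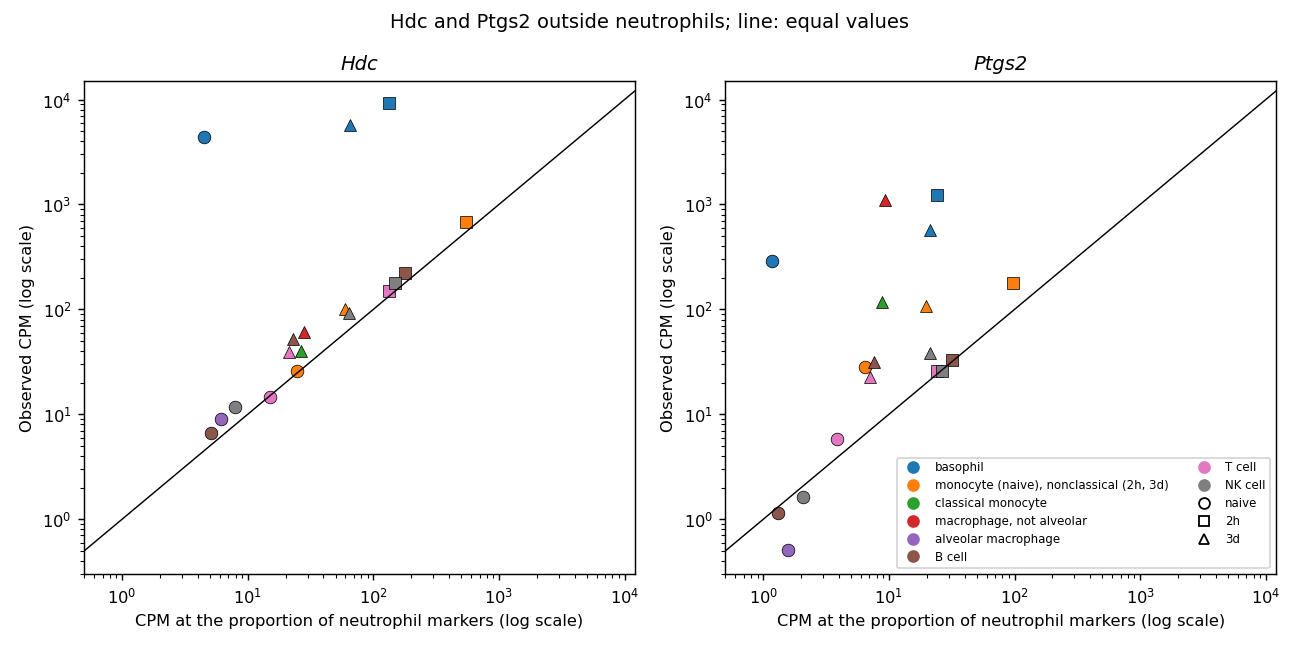
Observed CPM of Hdc and Ptgs2 in cell types other than neutrophils (y axis, log scale) against the CPM that the proportion of neutrophil marker RNA in the same cells would give (x axis, log scale); colour is the cell type, shape the library, and the line marks equal values. For Hdc the 2 h lymphocytes and nonclassical monocytes lie near the line, those of 3 d above it and the basophils far above it; for Ptgs2 the 3 d macrophages (1095 against 9.27 CPM) lie far above it too.

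Over all members, 2 h and 3 d were set side by side first, since both were transplants counted with the same software version. In neutrophils 8 members had enough UMIs, none was called higher and 3 were called lower (Ptgs1, Ltc4s and Hpgds), where 7.11% of all 9889 genes were higher and 21.5% lower. The Hpgds call rests on 3 and 18 UMIs (log2 -1.01, -3.42 to 0.77). The median log2 ratio of the members was -0.20 beside -0.36 over all genes, so that, measured from that median, Hdc (log2 0.95), Lta4h (0.53), Alox5ap (0.49) and Ptgs2 (0.06) lay on the 2 h side. In basophils 2 of 5 were higher (Ptgs2, Alox5ap) and none lower, against 8.35% and 19.6% of 3845 genes, with medians of 0.70 and -0.18.

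In monocytes as a whole 1 of 9 was called higher at 2 h (Hdc, log2 3.61) and none lower, against 12.6% and 17.7% of all genes. That comparison sets nonclassical cells at 2 h against both kinds at 3 d, so the cells named nonclassical were also set against each other. In nonclassical monocytes Hdc was 6.75-fold higher at 2 h (log2 2.75, 2.57 to 2.94), Alox5 was lower (log2 -1.01, -1.79 to -0.31), and Ptgs2 and Alox5ap had log2 ratios of 0.71 and 0.74, so that 1 of 7 was higher and 1 lower, against 8.16% and 21.3%. Hdc in these cells was 677 and 100 CPM at 2 h and 3 d. Neutrophil RNA at the proportion of its markers would give 544 and 59.5 CPM of that, and its part was not tested. At 2 h, 308 of these cells formed a cluster led by the heat-shock genes Hspa1a and Hspa1b in which B cell markers summed to 3294 CPM and nonclassical markers to 1051 CPM. The CD45R antibody, a B cell tag, was found on 50.1% of the nonclassical monocytes at 2 h and on 97.9% of B cells. Without that cluster, a setting chosen after seeing the data, Hdc stood at log2 2.95, Ptgs2 at 1.22, Alox5ap at 1.10 and Alox5 at -0.73. In lymphocytes 1 of 9 was higher (Hdc, log2 1.77, 1.64 to 1.90) and 2 lower (Ltc4s, 2 against 102 UMIs, and Ptges, 1 against 19), against 8.13% and 16.2%. Macrophages numbered 5 at 2 h and 803 at 3 d, where they held 308 and 52.7 CPM of Ltc4s and Ptges. Lymphocytes at 3 d held 4.64 and 0.864 CPM, and the part of macrophage RNA in these values was not tested. Lymphocyte Hdc was 172 and 50.3 CPM at 2 h and 3 d. Neutrophil RNA at the proportion of its markers would give 147 and 25.9 CPM, and its part was not tested. When each cell was named from its own marker UMIs, the log2 ratio of Hdc turned to -1.07 in monocytes and to -0.26 in lymphocytes. That naming leaves out cells whose leading marker list has less than 2-fold the UMIs of the next list, neutrophil markers included. Its effect on the Hdc values was not tested. In nonclassical monocytes that setting gave no Hdc ratio, so the contrast could not be drawn there. Ptgs2, Alox5ap and Alox5 stood at -0.56, 1.12 and -2.83.

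**Figure D4:**
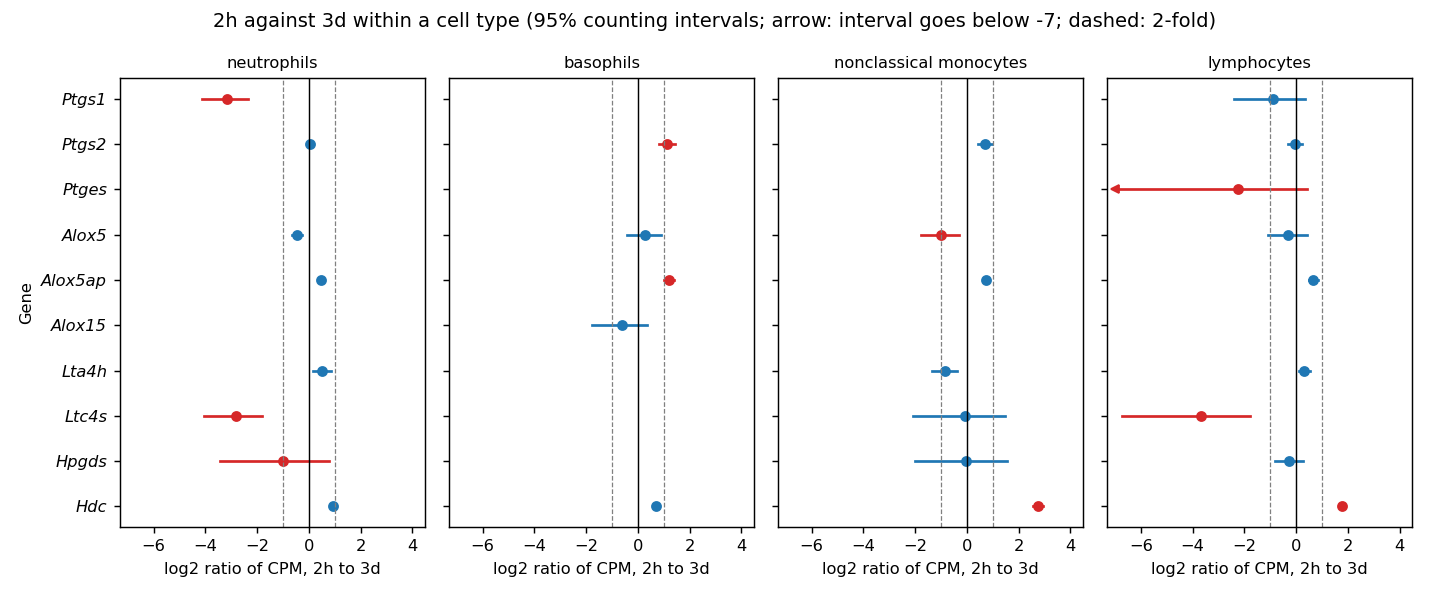
Log2 ratio of CPM at 2 h to that at 3 d (x axis) for each gene (rows) with at least 20 UMIs over both libraries, in 4 cell types; lines are 95% counting intervals, the solid line is no difference, dashed lines are 2-fold and red marks a call. Ptgs1 and Ltc4s lie left of the 2-fold line in neutrophils, Ptgs2 and Alox5ap right of it in basophils, and Hdc right of it in nonclassical monocytes and lymphocytes. The part of neutrophil RNA in these monocyte and lymphocyte Hdc values was not tested.

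Against the naive library the counting software changed too, from version 7.1.0 for the naive library to 6.0.0 for the others, and genes with long introns were higher in the naive library. In neutrophils the median log2 ratio of naive to 3 d was -0.66 for genes with under 5 kb of intron, -0.45 for 5 to 20 kb, -0.08 for 20 to 50 kb and 0.65 for over 50 kb. The members hold between 1.14 kb (Ltc4s) and 47.0 kb (Alox5) of intron, Hdc 19.2 kb, Ptgs2 3.62 kb and Ptges 36.5 kb, and the part of the counting in these contrasts was not tested. With that in view, neutrophils at 2 h had 1 of 7 members higher than naive (Alox5ap) and 2 lower (Ptgs1, log2 -1.19, and Ptges, -3.59), against 12.5% and 23.0% of all genes. At 3 d, 2 of 9 were higher (Ptgs1, log2 1.96, and Ltc4s, 1.87) and 1 lower (Ptges, -3.42), against 18.7% and 13.5%, and without the Il1f9 cluster the values of Ptgs1 and Ltc4s were 0.15 and 0.77. Hdc in neutrophils was close in the naive and 3 d libraries, with a log2 ratio of 3 d to naive of -0.14 (-0.18 to -0.10).

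Macrophages and monocytes of the 3 d library were separated by most of the 10 genes. All 10 had enough UMIs, 7 were called higher in macrophages and none lower, where 14.1% of 11681 genes were higher and 12.9% lower. The log2 ratio was 6.10 for Ltc4s (5.77 to 6.44), 5.38 for Ptges, 4.67 for Alox15, 4.42 for Ptgs1, 3.25 for Ptgs2, 3.20 for Hpgds and 1.63 for Alox5. Alox5ap and Lta4h pointed to monocytes, with -0.77 and -0.62, and Hdc was level at 0.16 (0.01 to 0.31).

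Of 66 other genes of these pathways found in the matrices, 31 had enough UMIs in neutrophils at 2 h and 3 d, and 5 were higher and 12 lower at 2 h, where 7.11% and 21.5% of all genes were. Among genes that release arachidonate 2 of 7 were higher and 2 lower, among other prostanoid synthases 1 and 3 of 5, among transport and breakdown genes 1 and 2 of 9, among prostanoid receptors 1 and 1 of 4, among leukotriene and lipoxin receptors 0 and 2 of 3, and among histamine genes 0 and 2 of 3. The largest ratios were those of Ggt1 (log2 -4.75, 1 against 80 UMIs), which trims leukotriene C4, Cysltr1 (-3.51), a receptor for the trimmed leukotrienes, Slc18a2 (-3.18) and Hnmt (-2.51), which inactivates histamine. Slc18a2 rests on few UMIs at 2 h. Basophil markers in neutrophils summed to 0.778 CPM at 2 h and 6.70 CPM at 3 d, and the part of basophil RNA in the Slc18a2 ratio was not tested. In basophils, where 8.35% of all genes were higher and 19.6% lower, 1 of 11 was higher (Ptges3, a co-chaperone that also has prostaglandin E synthase activity, log2 2.17) and 2 lower, the prostaglandin receptors Ptgfr (-1.93) and Ptger3 (-1.33, 1 against 19 UMIs, interval across 0).

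In monocytes 4 of 33 pathway genes were higher and 10 lower, where 12.6% and 17.7% of all genes were, with the largest ratios for Ephx1 (log2 3.98, an epoxide hydrolase), Ptgir (-3.08, the prostacyclin receptor), Ptgr1 (-2.90, which inactivates leukotriene B4 and prostaglandins) and Ltb4r1 (-2.39, the leukotriene B4 receptor). In lymphocytes 2 of 37 were higher and 10 lower, against 8.13% and 16.2% of all genes, with the largest ratios for Tbxas1 (log2 -3.85, thromboxane synthase, 2 against 117 UMIs), Hpgd (-2.96, which breaks down prostaglandins), Ptges3 (1.97) and Ptger2 (-1.57, a prostaglandin E2 receptor, interval across 0). The part of RNA from other cell types in these lymphocyte ratios was not tested. Ptges3 was called higher at 2 h in neutrophils (log2 1.31) and monocytes (2.06) as well.

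The genes whose level most resembled that of each member over 26 sums of a cell type in a library were named by Pearson's r of log2(CPM + 10), as a description, since these sums share libraries and depth. For Hdc they were Acod1 (0.96), Hcar2 and Cxcr2, for Ptgs2 Marcksl1 (0.92), Ier3 and Ccrl2, and for Alox5ap Lilrb4a (0.96), Csf2rb and Ccl6. Alox5 was nearest to Zc3h12a (0.90), Rab44 and Nlrp3, and Alox15 to Il4 (0.99), Cyp11a1 and Ms4a2, which are genes of basophils. The macrophage pattern was shared by Ltc4s with Marco (0.93), F7 and Mrc1, and by Ptges with Plau (0.89), Lpl and Igf1. Ptgs1 was nearest to Pf4 (0.93), Ltbp3 and Stab1. It stood at 108 CPM in macrophages at 3 d, but at 3.53 CPM in naive alveolar macrophages and 78.4 CPM in naive endothelial cells. Lta4h and Hpgds had looser neighbours, Sulf2 (0.83), Lrrk1 and Abracl for the first and Irf4 (0.77), Snx2 and Snx8 for the second. Cxcr2, Cyp11a1, Ms4a2, Marco, Mrc1 and Pf4 were themselves among the markers that named the cell types. A sum needed at least 30 cells, which left out the 20 naive basophils.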

How the data were processed

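The authors deposited a gene by cell matrix of UMI counts for each library, already limited to called cells and not normalized. Per the file headers the naive library was counted with Cell Ranger 7.1.0 and both transplant libraries with Cell Ranger 6.0.0, and the submitters' processing notes name mm10, Cell Ranger 6 and Seurat 4. Neither the labels nor the headers tell if reads in introns entered the counts, and the labels list both a 5′ and a 3′ kit. The transplant matrices also hold counts of 277 antibody tags.

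A cell was kept if it had over 200 but below 6000 genes, less than 10% of its UMIs from mitochondria and a total below 25000. The 3 libraries were clustered together with Seurat 5.3.0 (SCTransform 0.4.2 with mitochondrial share and UMI count regressed, 30 principal components, Louvain at resolution 0.8, no integration), with the 10 genes and the pathway list left out of the variable features. A cluster took the name of the marker list whose median log2 ratio to the cells of other lineages of the same libraries was above 1 with at least 3 markers above 1; this score was set after the leading genes had been seen. Scrublet in scanpy 1.11.5 called 40, 403 and 277 doublets in the naive, 2 h and 3 d libraries, which stayed in and were removed in an alternative.

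UMIs were summed per library and cell type and divided by all gene UMIs (CPM), with exact Poisson 95% intervals; ratios have exact intervals conditional on the total, and shares of cells exact Clopper-Pearson intervals after thinning to 500 UMIs, which at 2 h kept 4053 of 4393 neutrophils, 2501 of 2515 T cells and all 68 basophils. PCR copies were collapsed by UMI, and all intervals cover counting error only. A call needs 2-fold and at least 20 UMIs, with a count of 0 set to 3 counts. With 1 library per condition no test was run. All 10 members are named whatever their values. Of the pathway list up to 4 genes per cell type with the largest called ratio of 2 h to 3 d are named, and 3 neighbours are named for each member. The members and all lists were chosen with earlier results of these data known. The ratio script was tested on simulated data. Intron lengths came from GENCODE vM21, which matched 32158 of the 32285 identifiers. Alternatives were other cell filters and clusterings, removal of doublets, other scalings, thinning, subtraction of the T cell level, and 2 clusters left out.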

Additional observations from a re-analysis of the deposited data

Results flagged for a closer look

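Alox5 had log2 ratios of 2 h to 3 d of opposite direction in different cell types: 1.04 in B cells (9 against 36 UMIs, interval across 0), -1.01 in nonclassical monocytes and -1.998 in T cells (4 against 48 UMIs). The difference between these cell types was not tested.

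Antibody tags outside the gene counts gave signal above the highest isotype control, which summed to 3667 counts over kept cells at 2 h and 3640 at 3 d. The sums at 2 h and 3 d were 553358 and 332853 for CD44, 36675 and 39524 for CD45R, 161007 and 358793 for CD49f, 110586 and 189511 for ITGB7, and 5548 and 118685 for Mac2.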

How the results depend on the processing

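In neutrophils the 3 calls of 2 h against 3 d stayed between 2 and 4 under the alternatives tried. Monocytes had 1 call, and 2 with cells named from their own markers, with doublets removed or as a mean per 10000 counts, and 4 with the T cell level subtracted or without the heat-shock cluster. Nonclassical monocytes had 2, and 1 without the cell filter, with ribosomal and mitochondrial genes left out of the total or thinned, and 4 with the T cell level subtracted. The Alox5 call (-1.01) was under 2-fold without the cell filter (-0.98) and without ribosomal and mitochondrial genes (-0.99). They had 3 as a mean per 10000 counts or with doublets removed (Ptgs2 joined in the latter, at 1.02), and 3 with each library clustered by itself (Ptgs2 1.63, Alox5ap 1.07, Hdc 3.21) or without the heat-shock cluster (Ptgs2 1.22, Alox5ap 1.10, Hdc 2.95), with Alox5 lost in both of the latter (-0.82 and -0.73). Basophils had 2, and 1 with cells named from their own markers, without ribosomal and mitochondrial genes or thinned; the gene lost in each of these was Ptgs2, at log2 0.33, 0.98 and 0.74. Lymphocytes had 3, and 5 with doublets removed and 1 thinned. Naming each cell from its own markers reversed Hpgds in neutrophils (0.51), Hdc in monocytes (-1.07), lymphocytes (-0.26), B cells (-0.30) and T cells (-0.29), and Alox5ap in B cells (-1.08); thinning reversed Ptgs1 in B cells (0.46). The cause was not tested. Of 1057 log2 ratios recomputed, 818 moved by less than their interval, 232 moved further and 7 were counted as reversed. Some of the 232 changed sign too. With cells named from their own markers, Ptgs2 in monocytes went from 0.62 to -0.62 and Alox5 there from 0.55 to -1.55. Alox5ap in lymphocytes went from 0.66 to -0.75 in that setting. No paired analysis was possible because each condition has 1 library. Depth limits the 2 h library most, where Ptgs1, Ptges, Ltc4s and Hpgds had at most 12 UMIs in neutrophils, and basophils rest on 20 naive cells.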

Other observations

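Cells that a sort on CD45.1 would remove also carried these genes. A cluster with endothelial markers (89, 36 and 167 cells in the naive, 2 h and 3 d libraries) held Ptgs2 at 49.9, 470 and 234 CPM, and Ptgs1 at 78.4, 17.4 and 45.9 CPM. Its Hdc was 3.56 and 17.4 CPM in the naive and 2 h libraries, from 1 UMI each, and 416 CPM at 3 d, where neutrophil markers summed to 9.42% of their level in neutrophils and would give 211 CPM. A cluster of 166 cells at 3 d with platelet markers, whose leading genes also include the epithelial gene Sftpc, held Ptgs1 at 75.9 CPM from 14 UMIs. The part of macrophage RNA in that value was not tested.

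The cluster with dendritic cell markers (24, 214 and 130 cells), led by Siglech, Cd209a and Mgl2, held Alox5ap at 524, 1777 and 640 CPM and Ptgs2 at 16.6, 113 and 269 CPM, the first highest at 2 h and the second at 3 d. The naive Ptgs2 value rests on 6 UMIs. Neutrophil RNA at the proportion of its markers would give 10.1, 17.3 and 5.05 CPM of Ptgs2, and its part was not tested. The leading genes include markers of both plasmacytoid and conventional dendritic cells. Whether that mix differed between libraries was not tested. Alox5 in this cluster was 2.77, 6.52 and 11.6 CPM, from 1, 3 and 24 UMIs.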
